A study of Mus musculus with 9 samples.

Results

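The genes examined here encode 10 proteins that move cargo across or into brain endothelial cells: Mfsd2a, Tfrc, Cav1, Cav2, Plvap, Lrp1, Lrp8, Insr, Cltc and Ager. Every Omni-ATAC-seq peak that the deposited annotation named for one of them was taken, promoter and distal peaks alike. This gave 227 of 253457 peaks and, after peaks of different libraries that overlapped by at least 1 bp were joined, 57 of 92495 regions. Peaks were found for 9 of the 10 genes, against 20035 genes with a peak in the whole series, and Ager had 0 peaks in all 9 libraries.

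The libraries came from flow-sorted brain endothelial cells (ECs) of young and old mice and fell into 4 groups: young WT Cre (n = 2), young EC-K4KO (n = 3), old WT Cre (n = 2) and old EC-K4KO (n = 2). EC-K4KO mice carried floxed Klf4 and the CDH5-CreERT2 transgene, a tamoxifen-inducible Cre driven by the VE-cadherin promoter, so that Klf4, which encodes a zinc-finger transcription factor, was deleted in endothelium once tamoxifen was given to adult mice on the C57BL/6J background. WT Cre controls carried the Cre transgene, which all 4 groups therefore share. The paper states that control and knockout mice received the same tamoxifen treatment. The labels give the ages only as young and old. The paper gives age ranges in months for its young and old cohorts and does not repeat them for these libraries. All 5 young libraries carry 1 library prefix and all 4 old libraries another, and age and prefix cannot be told apart, whereas the genotype comparison lies within a prefix.

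Capillary endothelium of the brain forms the blood-brain barrier, which keeps vesicular traffic low and relies on selected carriers and receptors for its cargo. Receptor-mediated transcytosis starts at clathrin-coated pits, where a receptor such as the transferrin receptor gathers its ligand. Caveolae, small membrane pits shaped by caveolins, carry bulk fluid and plasma proteins, and they are scarce in healthy barrier endothelium. Open chromatin at a promoter or distal element marks DNA that proteins can reach, and is not a measure of transcript or protein.

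The peak lists differed widely in length, from 6157 and 9598 peaks in young WT Cre to between 23848 and 45026 in the other 7 libraries. A region missing from a short list may lie below its detection limit. Promoter peaks were found for 7 to 11 of 15 endothelial marker genes per library and for 0 of 8 microglial ones. Pericyte and mural markers had promoter peaks for 0 of 8 genes in the 5 young libraries, for 0 and 1 in old WT Cre and for 4 and 2 in old EC-K4KO, with none for Rgs5, Abcc9 or Notch3 in any library. All peaks named for these 8 genes numbered 0 to 3 in the young libraries, 4 and 10 in old WT Cre and 19 and 14 in old EC-K4KO. Some other lists rose too: peaks of 8 astrocyte genes numbered 0 to 16 in the young and 20 to 35 in the old libraries. Those of 8 neuronal genes numbered 1 to 10 and 8 to 17, and those of 6 choroid plexus genes 0 to 8 and 9 to 17. Counts were low and overlapped for 8 oligodendrocyte (0 to 6 and 4 to 9), 8 microglial (0 to 3 and 1 to 4) and 6 erythroid genes (0 to 4 and 2 to 5). Oligodendrocyte genes with a promoter peak numbered 0 to 2 in young and 1 to 2 in old libraries. Neuronal promoter peaks were found for 0 to 2 genes in young libraries, 1 and 1 in old WT Cre and 3 and 3 in old EC-K4KO. Peaks of the 15 endothelial genes also went from 30 to 108 in young to 119 to 166 in old libraries. The part of these lists in the differences between ages described here was not tested, and in a bulk library fewer cells of a type and less open chromatin per cell cannot be told apart. The Klf4 promoter held a peak in all 9 libraries, EC-K4KO included, and an open promoter does not check the deletion of the gene.

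Reference sequence is shown for 6 windows on which the results turn. Of the 10 genes, 8 had an entry in the RefSeq promoter table used (GRCm38.p6). Promoter windows are the 250 bases before the start site, and distal windows the 200 bases around the mean peak centre, all in GRCm38 (mm10) and read 5′ to 3′ on the strand of the gene. The Mfsd2a promoter window overlaps an exon of the non-coding gene 4933421A08Rik on the annotation, and the other 5 windows overlap no exon. Capitals mark a match on either strand to 1 of 5 motifs: CCACCC (the core bound by KLF factors), CCGGAA and CAGGAA (ETS factors), TGANTCA (AP-1) and GGGCGG (the GC box of SP and KLF factors). The Mfsd2a promoter and intron are shown for their presence in the lists, the Tfrc, Insr and Cltc windows for their differences between ages.
Mfsd2a promoter, chr4:122961189-122961438, minus strand: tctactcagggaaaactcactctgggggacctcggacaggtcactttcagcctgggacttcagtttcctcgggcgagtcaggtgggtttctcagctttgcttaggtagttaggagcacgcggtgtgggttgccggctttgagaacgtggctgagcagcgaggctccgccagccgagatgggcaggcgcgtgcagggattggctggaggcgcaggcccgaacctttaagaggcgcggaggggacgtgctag
Mfsd2a intron, chr4:122955568-122955767, minus strand: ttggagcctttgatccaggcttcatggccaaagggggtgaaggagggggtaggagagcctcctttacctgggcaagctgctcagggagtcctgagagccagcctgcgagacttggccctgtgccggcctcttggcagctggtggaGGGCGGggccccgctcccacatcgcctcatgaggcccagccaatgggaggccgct
Tfrc promoter, chr16:32608646-32608895, plus strand: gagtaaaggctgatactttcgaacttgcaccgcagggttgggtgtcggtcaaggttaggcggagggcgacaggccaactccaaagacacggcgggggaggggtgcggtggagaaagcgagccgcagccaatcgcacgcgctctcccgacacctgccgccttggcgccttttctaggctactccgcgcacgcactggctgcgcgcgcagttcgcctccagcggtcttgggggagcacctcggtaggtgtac
Tfrc upstream region, chr16:32567447-32567646, plus strand: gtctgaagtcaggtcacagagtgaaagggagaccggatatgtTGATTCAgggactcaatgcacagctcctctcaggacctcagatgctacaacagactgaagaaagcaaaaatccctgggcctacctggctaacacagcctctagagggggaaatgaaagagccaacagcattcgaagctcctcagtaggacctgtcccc
Insr intron, chr8:3225376-3225575, minus strand: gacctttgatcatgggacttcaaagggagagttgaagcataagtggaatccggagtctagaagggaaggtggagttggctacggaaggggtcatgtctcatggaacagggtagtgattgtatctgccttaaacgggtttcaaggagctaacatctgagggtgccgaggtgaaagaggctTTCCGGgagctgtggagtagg
Cltc promoter, chr11:86757568-86757817, minus strand: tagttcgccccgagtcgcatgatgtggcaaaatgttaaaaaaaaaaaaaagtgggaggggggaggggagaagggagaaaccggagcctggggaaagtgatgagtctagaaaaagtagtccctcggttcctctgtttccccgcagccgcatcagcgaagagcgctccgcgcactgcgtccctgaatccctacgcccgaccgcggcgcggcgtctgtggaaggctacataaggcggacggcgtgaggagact

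The 3 promoter windows of Mfsd2a, Tfrc and Cltc held no match to any of the 5 motifs. Of 32817 promoter windows of the same length, 28.1% held CCACCC, 12% CCGGAA, 25.7% CAGGAA, 6.75% TGANTCA and 32.7% GGGCGG. Among the distal windows, the Mfsd2a intron held 1 match to GGGCGG, the Insr intron 1 to CCGGAA and the region upstream of Tfrc 1 to TGANTCA. In 16688 distal windows of the same length, from regions held by at least 4 libraries, the shares were 14.7% for GGGCGG, 8.01% for CCGGAA, 12.1% for TGANTCA, 22.5% for CCACCC and 40.5% for CAGGAA. These matches describe letters and not binding.

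Peaks of the transport genes rose in number with the length of the list. Young WT Cre held 9 and 13 of them, young EC-K4KO 17, 21 and 27, old WT Cre 34 and 29 and old EC-K4KO 39 and 38. Most of the increase was distal: promoter peaks numbered 3 and 5, then 5, 6 and 4, then 7 and 7, and 6 and 6 in the same order, and distal peaks 6 and 8, 12, 15 and 23, 27 and 22, and 33 and 32. Per 10000 peaks of the library, the order of the groups was different, with 14.6 and 13.5 in young WT Cre and between 7.13 and 9.72 in the other 7 libraries. For their length, the short young WT Cre lists thus held more of these peaks than the long ones. This was not particular to the 10 genes. A wider list of 38 genes of the same routes, described below, had 21 and 31 peaks in young WT Cre, in lists of 6157 and 9598. It had 53 to 128 in the other 7 libraries, whose lists held 23848 to 45026.

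**Figure D1:**
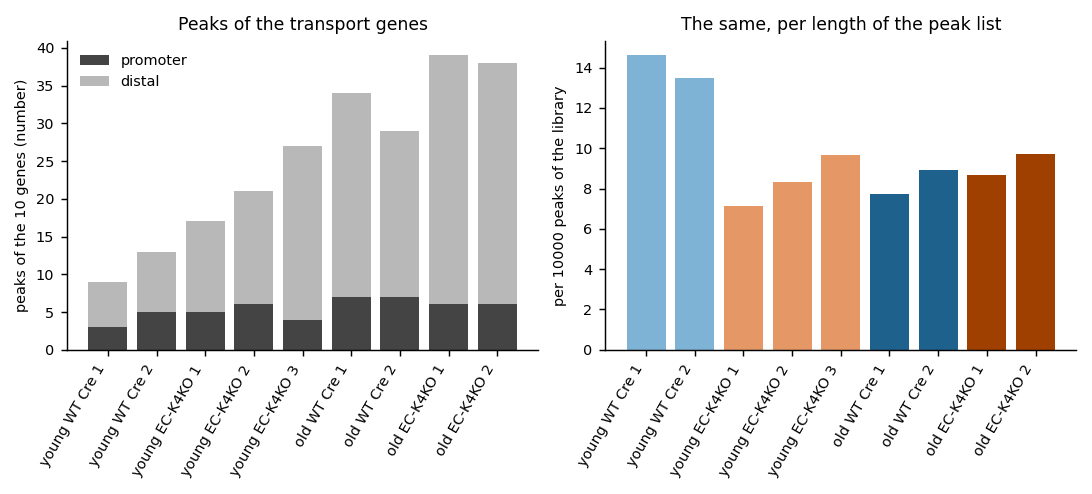
Number of peaks named for the 10 transport genes in each library, split into promoter (dark) and distal (light) peaks on the left, and the same number per 10000 peaks of that library on the right, coloured by group. The counts run from 9 to 39, whereas the 2 young WT Cre libraries stand highest, at 14.6 and 13.5, once list length is divided out.

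Of the 57 regions, 9 (15.8%) were held by all 9 libraries, against 5.27% of all regions, and 23 (40.4%) by 1 library alone, against 57.3%. The shared regions were the promoters of Tfrc, Cav2, Lrp1 and Cltc, an Mfsd2a intron 5.5 kb downstream of the start site, an Lrp8 intron at 1.5 kb, and 3 Insr introns at 54.2, 58.3 and 63.9 kb. Among the 34 regions held by at least 2 libraries, 4 (11.8%) had a peak in all 4 old libraries and in none of the 5 young ones, against 8.91% of all such regions. These lay 41.3 kb upstream of Tfrc, 39.8 kb upstream of Cav2, in the Cav2 intron at 5.4 kb and in the Insr intron at 9.1 kb. The Mfsd2a promoter was the 1 region (2.94%, against 9.21%) found in the 7 other libraries and in neither young WT Cre library, and a region 27.5 kb upstream of Cav2 the 1 (2.94%, against 8.98%) found in both old EC-K4KO libraries and no other.

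**Figure D2:**
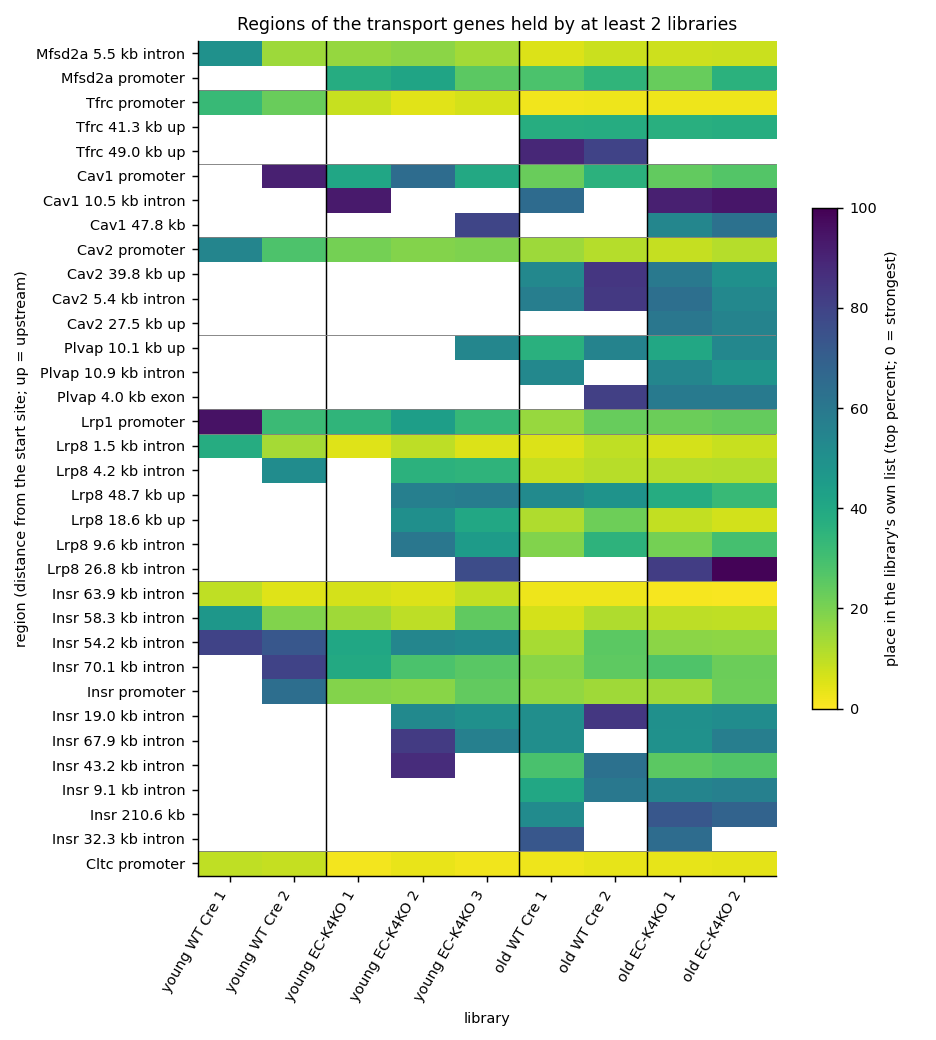
Regions of the transport genes held by at least 2 libraries (34, one per row, named by distance from the start site) in the 9 libraries (columns, groups separated by lines), coloured by place in the library's own list from 0 (strongest) to 100 percent, with white for no peak. The Tfrc promoter, the Cltc promoter and the Insr 63.9 kb intron are yellow, within the top 4.2%, in all 4 old libraries, and many distal rows are white in young WT Cre.

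Mfsd2a encodes the lysophospholipid carrier that brings docosahexaenoic acid into the brain and that restrains caveolar transcytosis in barrier endothelium. Its promoter (chr4:122960914-122961644) had no peak in young WT Cre. It stood at the top 38.0, 41.6 and 25.0% of the young EC-K4KO lists, at 28.4 and 34.4% in old WT Cre and at 23.3 and 36.2% in old EC-K4KO. The 3 groups with a peak overlapped. The intronic region (chr4:122955177-122956175) ranked higher than the promoter in each of those 7 libraries, at the top 13.8 to 17.2% in young EC-K4KO and 5.44 to 8.1% in the old libraries, and it was also present in young WT Cre at 49.4 and 14.6%.

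Tfrc encodes the transferrin receptor, which carries iron-loaded transferrin into the endothelial cell. Its promoter region (chr16:32608675-32609365, centred 126 bp after the start site) ranked near the head of the old lists, at the top 2.03 and 2.67% in old WT Cre and 2.48 and 2.68% in old EC-K4KO. In young EC-K4KO it stood at 8.42, 4.33 and 6.46% and in young WT Cre at 32.7 and 23.0%. The annotation called 3 of the 9 peaks there promoter and the others exon or intron, so counts by class understate promoter peaks at this gene. The region 41.3 kb upstream (chr16:32567201-32567870, intergenic) stood at the top 37.6 and 38.0% in old WT Cre and 36.9 and 37.6% in old EC-K4KO. When each of the 7 lists other than young WT Cre was shortened to its 23848 strongest peaks, this region was still in all 4 old and in 0 of 3 young EC-K4KO lists. It was the only 1 of 25 regions of these genes with that pattern (4.0%, against 5.49% of all regions held by at least 2 of the 7 shortened lists). A further region 49.0 kb upstream had a peak in both old WT Cre libraries alone, at 88.8 and 79.7%.

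Cav1 and Cav2 encode caveolins, of which caveolin-1 is the main structural protein of caveolae and caveolin-2 its partner. The genes neighbour each other on chromosome 6. The Cav1 promoter (chr6:17305944-17307967) had a peak in 8 libraries: at the top 91.3% in 1 young WT Cre library, at 40.8, 64.7 and 39.8% in young EC-K4KO, at 22.8 and 35.8% in old WT Cre and at 24.2 and 26.8% in old EC-K4KO. Places in a list depend on its length, and among the regions shared by the 7 libraries other than young WT Cre the ages overlapped, with young EC-K4KO 1 at the 19.7 percentile and old WT Cre 2 at 18.7. Peaks in the Cav1 intron at 10.5 kb (4 libraries) and 47.8 kb downstream (3 libraries) lay in the lower parts of the lists, between 54.0 and 94.1%. The Cav2 promoter region (chr6:17280890-17282392) stood at 54.5 and 27.9% in young WT Cre, at 18.5 to 21.0% in young EC-K4KO and at 8.79 to 14.7% in the old libraries. All 9 libraries had a peak there, of which the annotation called 4 promoter and the others exon or intron. Counts by class thus understate promoter peaks at Cav2 as well. The Cav2 regions with peaks in all 4 old libraries and no young one were weak, the one 39.8 kb upstream at 49.9 to 84.1% and the one at 5.4 kb at 53.5 to 83.4%. At equal list length they were in 2 and 1 of the 4 old lists.

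Plvap encodes the protein of the diaphragms that span caveolae and fenestrae, which mature barrier endothelium largely lacks. A promoter peak was found in 1 library alone, young EC-K4KO 1. Its most widely held region lay 10.1 kb upstream (chr8:71521655-71521956), with peaks in 1 young EC-K4KO library at the top 54.1%, in old WT Cre at 36.7 and 55.3% and in old EC-K4KO at 40.2 and 53.8%. The intron at 10.9 kb and the exon at 4.0 kb each had a peak in 3 libraries, all old, at 48.4 to 81.1%. No peak was named for Plvap in either young WT Cre library or in young EC-K4KO 2.

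Lrp1 encodes a large endocytic receptor of the LDL receptor family that clears ligands such as apolipoprotein E and amyloid beta. Its promoter (chr10:127621331-127622489) had a promoter-class peak in all 9 libraries, at the top 95.3 and 31.7% in young WT Cre, 32.9 to 44.0% in young EC-K4KO and 15.4 to 23.7% in the old libraries. The 2 young WT Cre libraries were thus far apart. Distal Lrp1 peaks were found in 2 libraries, 1 each. The gene body held 10 peaks, of which the annotation named 8 for the neighbouring start site of Nxph4, and these were not counted for Lrp1. Lrp8 encodes a related receptor that binds apolipoprotein E, reelin and selenoprotein P. It had 0 promoter-class peaks and 41 distal ones. The intron at 1.5 kb (chr4:107803461-107804156) stood at 38.0 and 13.6% in young WT Cre, 5.01 to 9.87% in young EC-K4KO and 5.36 to 9.38% in the old libraries. Further regions at 4.2 kb, 9.6 kb, 18.6 kb upstream and 48.7 kb upstream were in all 4 old libraries, in young EC-K4KO 2 and 3, and not in young EC-K4KO 1, the first of them also in young WT Cre 2 at 51.3%. Of these, the one 18.6 kb upstream was at 50.2 and 40.0% in the 2 young EC-K4KO libraries and at 6.9 to 22.1% in the old ones.

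Insr encodes the insulin receptor, which also ferries insulin across endothelium, and it had more peaks than any other of these genes, 71. Its strongest region was an intron at 63.9 kb (chr8:3215281-3216008), at the top 9.6 and 4.78% in young WT Cre, 5.37 to 9.01% in young EC-K4KO, 2.41 and 2.72% in old WT Cre and 1.53 and 1.09% in old EC-K4KO. The promoter (chr8:3279084-3279942) was held by 8 libraries, at 63.7% in 1 young WT Cre library, at 17.7 to 24.0% in young EC-K4KO and at 14.2 to 22.2% in the old libraries. Its peaks were classed as promoter in the 4 old libraries and as exon in the 4 young ones, so that the class differed between ages at 1 and the same region. The intron at 54.2 kb (chr8:3225200-3225965) moved most, from 79.7 and 72.7% in young WT Cre and 40.4 to 54.1% in young EC-K4KO to 13.0 and 25.2% in old WT Cre and 17.5 and 16.8% in old EC-K4KO.

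Cltc encodes the clathrin heavy chain, the building block of coated pits. Its promoter (chr11:86757304-86758446) was among the strongest regions in every library, at the top 9.57 and 8.73% in young WT Cre and between 1.61 and 4.2% in the other 7. Only 2 distal Cltc peaks were found. Ager encodes the receptor for advanced glycation end products, which takes up amyloid beta from blood. No peak of any name lay over its gene body (chr17:34597862-34600936, plus strand, 3.08 kb). The nearest region was the Rnf5 promoter, 2516 bp away, which all 9 libraries held at the top 0.251 to 1.75%. Peak lists hold no read counts, so that coverage over the Ager gene body itself is unknown.

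Places in a whole list depend on its length. The strength of a region was therefore also ranked among the 4872 regions that all 9 libraries share, with 100 as the strongest percentile, and the ranks were turned into normal scores, whose unit is 1 SD across regions. Group means were compared with limma, with Benjamini-Hochberg adjustment over all 4872 regions and a threshold of 0.05. All 9 shared regions of the transport genes were in the fit. The paper calls the ATAC-seq replicates biological. Nothing in the labels says that they are separate animals, and the p-values measure only the spread between libraries.

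**Figure D3:**
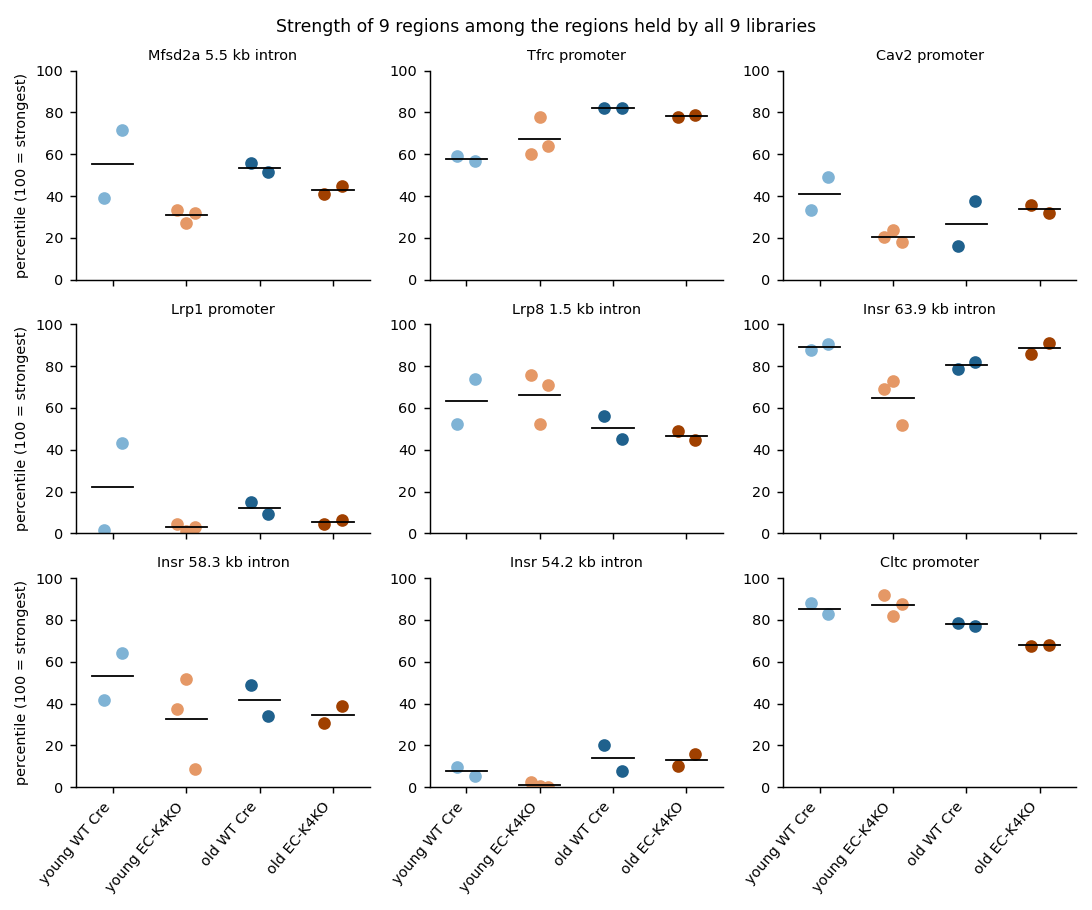
Strength of the 9 shared regions of the transport genes as a percentile among the 4872 regions held by all 9 libraries (vertical axis, 100 = strongest), with one point per library, groups along the horizontal axis and the group mean as a line. The Tfrc promoter points of old WT Cre (82.0 and 82.3) lie above those of young WT Cre (59.0 and 56.8), and those of the Cltc promoter lie below.

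Between ages, 2 of the 9 regions were higher in old than in young mice and 1 was lower, against 9.77% of all shared regions higher and 11.1% lower. The Tfrc promoter stood at the 59.0 and 56.8 percentiles in young WT Cre, 60.2, 77.8 and 64.1 in young EC-K4KO, 82.0 and 82.3 in old WT Cre and 77.7 and 79.0 in old EC-K4KO. The ages did not overlap in WT Cre, and 1 young EC-K4KO library fell among the old EC-K4KO ones. The difference in normal score was 0.52 ± 0.16 (SE, limma, adjusted p = 0.0398). It lost the threshold when strength was ranked by fold enrichment (0.26, adjusted p = 0.409, limma). It was also lost in 6 of the 9 fits without 1 library, those without any old library or without young EC-K4KO 1 or 3 (limma, adjusted p from 0.0642 to 0.148).

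The Insr intron at 54.2 kb stood at 9.86 and 5.14 in young WT Cre, 2.25, 0.318 and 0.113 in young EC-K4KO, 20.2 and 7.65 in old WT Cre and 10 and 15.8 in old EC-K4KO. It was thus among the weaker shared regions in every library, and the ages overlapped in WT Cre but not in EC-K4KO. Old exceeded young by 0.89 ± 0.23 (SE, limma, adjusted p = 0.0245). The call was lost when ranked by fold enrichment (0.76, limma, adjusted p = 0.0682), with percentiles in place of normal scores (limma, adjusted p = 0.108), and without old EC-K4KO 1 or 2, old WT Cre 1 or young EC-K4KO 2 (limma, adjusted p from 0.0538 to 0.106).

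The Cltc promoter went the other way. It stood at 87.9 and 82.9 in young WT Cre, 92.1, 81.9 and 87.8 in young EC-K4KO, 78.7 and 76.9 in old WT Cre and 67.5 and 68.1 in old EC-K4KO. Every old library was below every young one. The score fell by 0.50 ± 0.16 (SE, limma, adjusted p = 0.0475), and it fell by 0.92 when ranked by fold enrichment (limma, adjusted p = 0.0262). The threshold was missed without any 1 of the 4 old libraries, young EC-K4KO 1 or 3 or young WT Cre 1 (limma, adjusted p from 0.0689 to 0.157).

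The other 6 regions did not pass. The Lrp8 intron at 1.5 kb stood at 52.5 and 73.7 in young WT Cre, 75.7, 52.3 and 71.2 in young EC-K4KO, 56.2 and 45.0 in old WT Cre and 48.8 and 44.5 in old EC-K4KO. Its difference was −0.43 ± 0.19 (SE, limma, adjusted p = 0.137) and −0.79 when ranked by fold enrichment (limma, adjusted p = 0.0278). It also passed without young WT Cre 1 (−0.57, limma, adjusted p = 0.0438). For the Mfsd2a intron, the Cav2 and Lrp1 promoters and the Insr introns at 58.3 and 63.9 kb, differences ran from −0.07 to 0.23 (limma, adjusted p from 0.359 to 0.969), and without young WT Cre 2 that of Lrp1 was 0.67 (limma, adjusted p = 0.0205). The median over the 9 regions was 0.13, and over all 4872 regions 0.027.

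**Figure D4:**
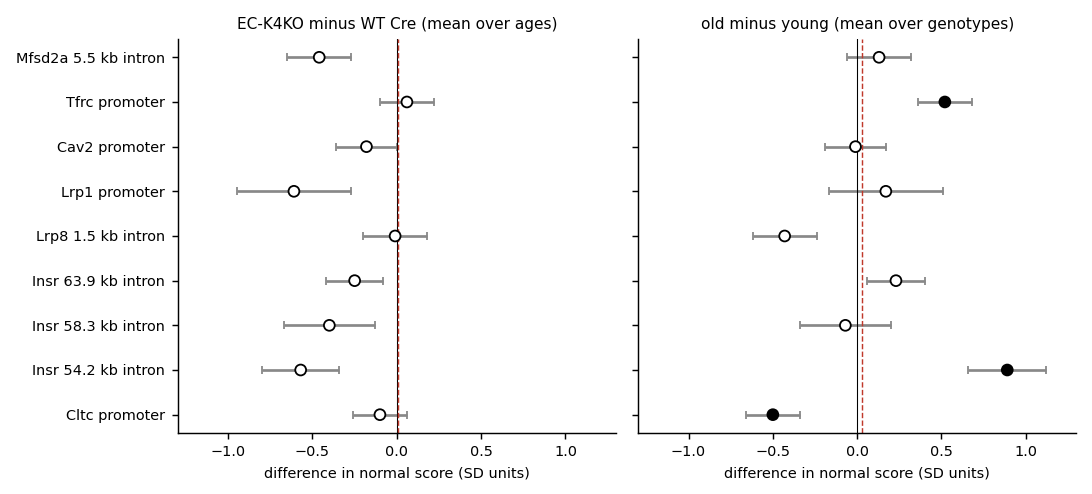
Difference in normal score of the 9 shared regions of the transport genes between genotypes (left) and ages (right), with bars of 1 SE and filled points where the adjusted p is under 0.05 (limma). The red dashed line is the median of all 4872 regions. No point is filled on the left, and on the right the Tfrc promoter (0.52) and the Insr 54.2 kb intron (0.89) are filled above 0 and the Cltc promoter (−0.50) below.

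Between genotypes, 0 of the 9 regions passed, against 37 of the 4872 shared regions (0.759%). At an unadjusted p under 0.05 there were 2 (limma), against 15.7% of all shared regions. One was the Mfsd2a intron, at 39.3 and 71.8 in young WT Cre, 33.2, 27.0 and 32.1 in young EC-K4KO, 55.7 and 51.3 in old WT Cre and 40.9 and 45.0 in old EC-K4KO. EC-K4KO libraries lay below WT Cre libraries at both ages without overlap, and the difference was −0.46 ± 0.19 (SE, limma, adjusted p = 0.267). The young WT Cre libraries were far apart, and the difference was −0.67 without the first of them (limma, adjusted p = 0.0332) and −0.25 without the second (limma, adjusted p = 0.334). The other was the Insr intron at 54.2 kb (−0.57 ± 0.23, SE, limma, adjusted p = 0.269), where the genotypes did not overlap in young mice and did in old mice.

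The Lrp1 promoter stood at 1.51 and 43.2 in young WT Cre, 4.42, 1.10 and 3.05 in young EC-K4KO, 14.8 and 9.49 in old WT Cre and 4.36 and 6.5 in old EC-K4KO. Its difference was −0.61 ± 0.34 (SE, limma, adjusted p = 0.416) and turned on the young WT Cre libraries, at −1.11 without the first (limma, adjusted p = 0.0148) and −0.11 without the second (limma, adjusted p = 0.750). The Cav2 promoter stood at 33.3 and 49.0 in young WT Cre, 20.2, 23.8 and 17.9 in young EC-K4KO, 16.0 and 37.7 in old WT Cre and 35.8 and 31.7 in old EC-K4KO, with a difference of −0.18 ± 0.18 (SE, limma, adjusted p = 0.674). For the Tfrc and Cltc promoters, the Lrp8 intron and the Insr introns at 58.3 and 63.9 kb, differences lay between −0.40 and 0.06 (limma, adjusted p from 0.516 to 0.991). In all, 8 of the 9 differences were below 0, with a median of −0.25, and the median of all regions was 0.006.

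The effect of genotype did not differ between ages past the threshold for any of the 9 regions, or for any of the 4872 (0.0%; 10.8% at an unadjusted p under 0.05, limma). The largest difference among the 9 was at the Insr intron at 63.9 kb, which stood at 87.9 and 90.6 in young WT Cre, 69.3, 72.7 and 51.7 in young EC-K4KO, 78.8 and 82.0 in old WT Cre and 86.0 and 91.3 in old EC-K4KO. The genotypes did not overlap at either age and had opposite orders. The interaction was 1.22 ± 0.34 (SE, limma, adjusted p = 0.350). At an unadjusted p under 0.05 there were 3 of the 9, the others being the Cav2 promoter (0.83 ± 0.36, SE, limma, adjusted p = 0.443) and the Insr intron at 54.2 kb (1.12 ± 0.47, SE, limma, adjusted p = 0.414).

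Leaving out the short young WT Cre lists raised the shared regions to 11594 and those of the transport genes to 13, by adding the Mfsd2a, Cav1 and Insr promoters and the Insr intron at 70.1 kb. Between old EC-K4KO and old WT Cre, 0 of the 13 passed, and so did 0 of all 11594 (0.0%; 5.85% at an unadjusted p under 0.05, limma). The Mfsd2a promoter stood at 17.3 and 20.5 in old WT Cre and 23.7 and 12.2 in old EC-K4KO on this scale, and the Cav1 promoter at 26.6 and 18.7 and at 22.1 and 24.2, so that the genotypes overlapped at both.

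Between old and young EC-K4KO, 1 of the 13 was higher, against 3.93% of all. It was again the Insr intron at 54.2 kb, with 20.2, 7.86 and 6.63 in young EC-K4KO and 37.8 and 46.5 in old EC-K4KO (difference 1.05 ± 0.24, SE, limma, adjusted p = 0.0357). These libraries are also part of the comparison of ages, and the value is not independent of it. Without old EC-K4KO 1 or 2, either old WT Cre library or young EC-K4KO 2 or 3, the adjusted p rose to between 0.0558 and 0.285 (limma). The call was also lost by fold enrichment (0.74, limma, adjusted p = 0.147) and with percentile ranks (limma, adjusted p = 0.05). The Cltc promoter (−0.56 ± 0.17, SE, limma, adjusted p = 0.0727) and the Insr intron at 63.9 kb (0.64 ± 0.18, SE, limma, adjusted p = 0.0600) did not pass. By fold enrichment the Cltc promoter passed (−1.3, limma, adjusted p = 0.0284) and the Insr intron was at −0.02.

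Width was compared on the log2 scale for the same 9 regions in all libraries. Here every difference has to be read against a shift of all regions, whose median was 0.474 between ages, or 1.39-fold wider in old mice, and 0.349 between genotypes, or 1.27-fold wider in EC-K4KO. In old mice 5 of the 9 regions were wider, against 67.3% of all regions: the Mfsd2a intron, the Tfrc and Lrp1 promoters and the Insr introns at 58.3 and 63.9 kb. The Lrp1 promoter was 224 and 573 bp wide in young WT Cre, 510, 586 and 861 bp in young EC-K4KO, 960 and 1006 bp in old WT Cre and 999 and 842 bp in old EC-K4KO (log2 difference 0.99 ± 0.29, SE, limma, adjusted p = 0.0208). The Insr intron at 58.3 kb gave 0.78 ± 0.23 (SE, limma, adjusted p = 0.0212). The other 3, the Mfsd2a intron (0.38), the Tfrc promoter (0.32) and the Insr intron at 63.9 kb (0.30), widened by less than the median region. With widths ranked within each library, their differences were −0.10, −0.30 and −0.46 normal scores and none of the 5 passed. On that scale 145 of all regions were wider and 207 narrower in old mice, in place of 3279 and 1. Each of the 5 calls was also lost in some fits without 1 library (limma): Lrp1 without any old library (adjusted p up to 0.0681), Mfsd2a without any old library or young EC-K4KO 1 or 2 (up to 0.0934), Tfrc without those or young WT Cre 2 (up to 0.130), the Insr intron at 58.3 kb without either old WT Cre library, old EC-K4KO 1 or young WT Cre 1 (up to 0.0711), and that at 63.9 kb without either old EC-K4KO library or old WT Cre 1 (up to 0.0594).

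In EC-K4KO 2 of the 9 regions were wider, against 30.9% of all regions. The Mfsd2a intron was 686 and 463 bp wide in young WT Cre, 833, 890 and 908 bp in young EC-K4KO, 894 and 826 bp in old WT Cre and 987 and 948 bp in old EC-K4KO. The genotypes did not overlap at either age (log2 difference 0.40 ± 0.12, SE, limma, adjusted p = 0.0456). For the Insr intron at 63.9 kb, widths were 403 and 398 bp in young WT Cre, 691, 585 and 639 bp in young EC-K4KO, 647 and 622 bp in old WT Cre and 603 and 623 bp in old EC-K4KO (0.31 ± 0.08, SE, limma, adjusted p = 0.0298). Neither passed with widths ranked within each library (0.16 and −0.22 normal scores). Without any old library or young EC-K4KO 3 both calls were lost, and that of Mfsd2a also without young EC-K4KO 2 (limma, adjusted p from 0.0579 to 0.137). The genotype effect on width differed between ages at the Insr intron (interaction −0.72 ± 0.16, SE, limma, adjusted p = 0.0394), as it did downward at 8.87% of all regions, whose median interaction was −0.505.

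**Figure D5:**
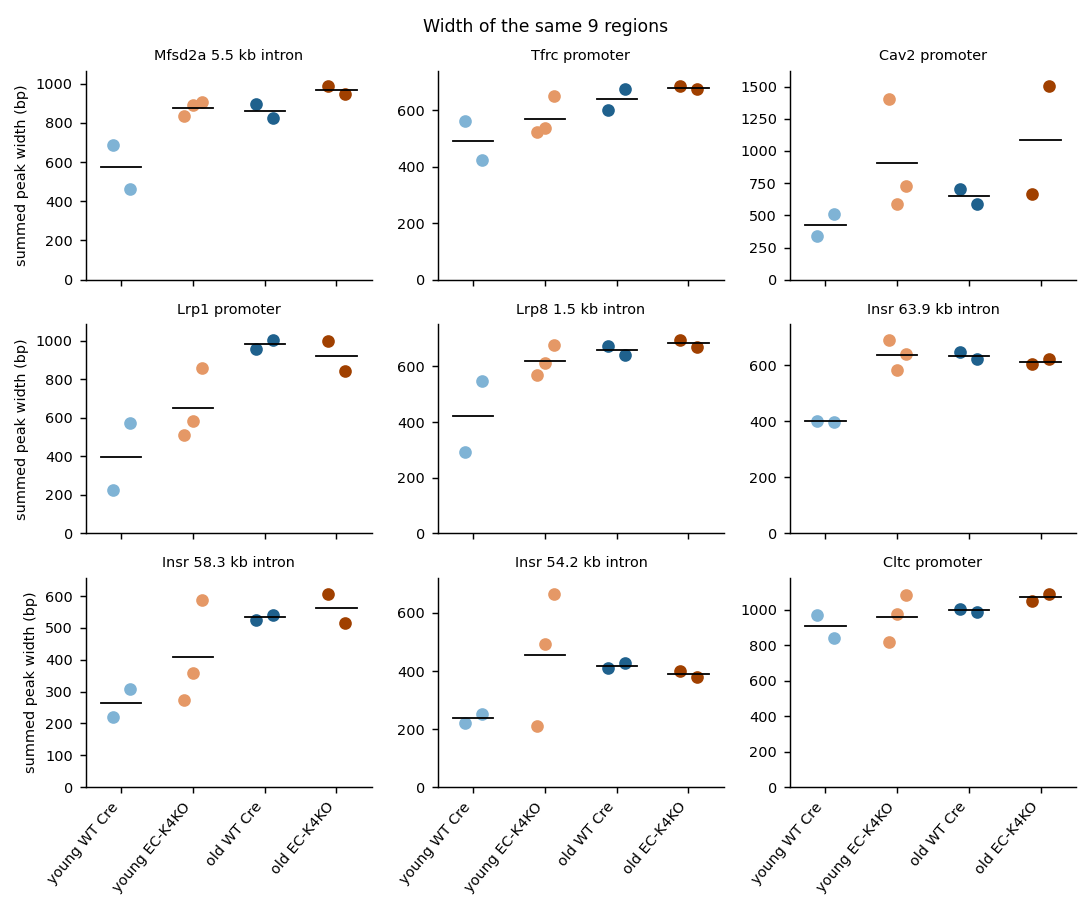
Summed peak width in bp of the 9 shared regions of the transport genes (vertical axes from 0), with one point per library, groups along the horizontal axis and the group mean as a line. The young WT Cre points are the narrowest in the Insr 63.9 kb panel (403 and 398 bp), and the Cltc promoter is among the widest regions in all groups.

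The number of peaks named for a gene was compared with an exact permutation test that shuffles libraries within the other factor (two-sided, 60 arrangements, smallest possible p = 0.0167). Between ages, 6 of the 9 genes with peaks had more in old mice at an exact p under 0.05, against 20.3% of 20035 genes. Those 20035 include every gene with a peak in at least 1 library, and a gene with 1 peak in all cannot reach such a p. The 9 genes had 11 to 71 peaks each over all libraries. No share given for peaks per gene was matched for number of peaks, so these shares do not set the 9 genes apart. Cav2 had 1 and 1 peaks in young WT Cre, 1, 1 and 2 in young EC-K4KO, 3 and 3 in old WT Cre and 5 and 5 in old EC-K4KO (exact permutation p = 0.0167). Cav1 had 0 and 1, then 2, 1 and 3, then 4 and 2, and 5 and 5 in the same order (exact permutation p = 0.0167). Its promoter-class peaks, all in 1 region, numbered 0 and 1 in young WT Cre, 1 in each young EC-K4KO and 2 in each old library. Part of the rise at Cav1 is thus 1 region called as 2 peaks. Mfsd2a had 1 and 1, 2, 2 and 2, 2 and 2, and 3 and 3 (exact permutation p = 0.0167).

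Plvap had 0 and 0 in young WT Cre, 2, 0 and 1 in young EC-K4KO, 2 and 2 in old WT Cre and 3 and 3 in old EC-K4KO, at the exact permutation p of 0.0333 that Lrp8 and Insr also gave. Lrp8 had 1 and 2, 1, 5 and 6, 6 and 6, and 7 and 7, and Insr 3 and 5, 6, 8 and 9, 11 and 8, and 11 and 10. No gene passed after adjustment over all 20035 genes (smallest adjusted p = 0.104). Tfrc (1 and 1, 1, 2 and 1, 3 and 3, and 2 and 3, exact permutation p = 0.05), Lrp1 and Cltc did not pass. The old lists were also the longest, and the part of list length in these counts was not tested. When every list was shortened to its 6157 strongest peaks, 7 of the genes had at least 1 peak. Of these 1, Lrp8, had more in old mice, against 1.41% of 8445 genes (119 with more and 93 with fewer). Cav1 and Plvap then had 0 peaks in all 9 libraries, and Mfsd2a and Tfrc 1 peak in each, so that the shortened lists hold no difference at these genes to test. Lrp8 then had 1 and 2 peaks in young WT Cre, 1, 1 and 1 in young EC-K4KO, 3 and 2 in old WT Cre and 3 and 3 in old EC-K4KO (exact permutation p = 0.0333). With any 1 young EC-K4KO library left out, the design cannot give a p under 0.0556. Leaving out young WT Cre 1 took Cav1 and Insr past 0.05 (exact permutation p = 0.0667 each), and leaving out either old EC-K4KO library took Plvap, Lrp8 and Insr past it (exact permutation p = 0.0833 each). Lrp8 also missed it with peaks at a q-value under 0.05 (exact permutation p = 0.117), and with distal peaks alone Cav1 (exact permutation p = 0.100), Mfsd2a (exact permutation p = 0.100) and Insr (exact permutation p = 0.05) did, whereas Tfrc passed (exact permutation p = 0.0167).

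Between genotypes, 1 of the 9 genes, Mfsd2a, had more peaks in EC-K4KO (1.0 more, exact permutation p = 0.0167, adjusted over all genes 0.543), against 5.11% of all genes. The values were the same 1 and 1, 2, 2 and 2, 2 and 2, and 3 and 3, with no spread within a group. The promoter peak made the difference in young mice, and in old EC-K4KO 1 further peak appeared in each library, at 11.7 kb in one and 1.7 kb upstream in the other. At equal list length Mfsd2a had 1 peak in every library and 0 of the 7 genes differed. Of 8445 genes, 0.154% had more and 0.213% fewer peaks in EC-K4KO.

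A wider list of 38 genes of the same routes, from caveolar and clathrin coats to iron and lipid receptors, had 17 shared regions at 15 genes. Between ages 4 were higher and 1 lower, against the 9.77% and 11.1% of all shared regions given above, and between genotypes 0 passed. The higher ones were the promoters of Dnm2, dynamin 2, which pinches vesicles off the membrane (0.98 ± 0.20, SE, limma, adjusted p = 0.0103), Ap2a1, a subunit of the clathrin adaptor (0.66 ± 0.16, adjusted p = 0.0169), Slc40a1, the iron exporter ferroportin (0.52 ± 0.15, adjusted p = 0.0328), and Dab2, a clathrin-associated sorting protein (0.58 ± 0.17, adjusted p = 0.0371). The Dnm2 promoter stood at 19.4 to 55.3 in the young libraries and 69.4 to 77.0 in the old ones, without overlap. In the same order Slc40a1 stood at 59.9 to 77.1 and 77.3 to 89.8, and Dab2 at 24.4 to 53.0 and 52.8 to 62.6, with overlap at Dab2. The Ap2a1 promoter was near the top in every library, at 99.2 to 99.8 in young and 99.9 in old ones. Its difference in normal score thus lies at the upper end of the scale. The lower one was the promoter of Igf1r, the receptor for insulin-like growth factor 1, at 90.8 to 98.8 in young and 80.0 to 85.4 in old libraries (−0.66 ± 0.19, adjusted p = 0.0349). With young WT Cre left out, 40 regions at 29 of the genes were shared, of which 0 passed between genotypes in old mice. In old against young EC-K4KO, 3 (7.5%) were higher and 1 (2.5%) lower, against 3.93% and 4.68% of all 11594 regions. The higher ones were the Dnm2 promoter and intergenic regions of Slc40a1 and Igf1r, and the lower one an exon of Snx27. The intergenic Igf1r region stood at 41.5, 45.3 and 34.2 in young EC-K4KO and 82.2 and 83.5 in old EC-K4KO (1.19 ± 0.16, SE, limma, adjusted p = 0.0126). This region thus went the opposite way to the Igf1r promoter in the comparison of ages. For the wider list, fits with other ranks or with 1 library left out are not given here, unlike for the 10 genes.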

How the data were processed

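Omni-ATAC-seq was performed on sorted brain endothelial cells, and reads were mapped to mm10 (GRCm38) with Bowtie2. The authors called broad peaks in each library separately with MACS2 and annotated each peak with its nearest start site. The deposited peak lists hold a score, the fold enrichment (ratio) and the −log10 of the p-value and q-value of each peak, and no read counts, so that the depth of the libraries is unknown and the read-based test of the study could not be rerun. Enrichment p-values grow with depth, and peaks were therefore ranked within each library by −log10 p.

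Peaks of all 9 libraries overlapping by at least 1 bp were joined into regions. Ranks among shared regions, as normal scores, and log2 summed widths were compared between genotypes within ages and ages within genotypes with limma 3.58.1 (R 4.3.3) and Benjamini-Hochberg adjustment over all shared regions. Peaks per gene were compared with exact permutation tests (Python 3.11.15, SciPy 1.17.1). A peak was promoter where the annotation class was promoter-TSS, distal otherwise, and a region is called a promoter where any of its peaks was. Gene positions came from GENCODE and promoter sequences from RefSeq (GRCm38.p6). Scripts were tested on simulated data. Alternatives were other ranks, a q-value limit of 0.05, a 100 bp overlap, promoter or distal peaks alone, equal list lengths, and each library left out.

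All 10 genes are named, with their promoter region, the 3 other regions held by most libraries and every region past a test. Further regions were named after their values were seen. The genes and lists were chosen with earlier results of these data known.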

Additional observations from a re-analysis of the deposited data

Results flagged for a closer look

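At the Insr intron at 63.9 kb the difference in log2 width between genotypes was not the same at both ages, with an interaction of −0.72 (limma, adjusted p = 0.0394), where the median of all 4872 regions was −0.505. At the same region the difference in strength had opposite signs at the 2 ages, with EC-K4KO lower than WT Cre by a mean of −24.7 percentile points in young mice and higher by 8.21 in old mice. Read the other way, old minus young was −8.83 percentile points in WT Cre and 24.1 in EC-K4KO. In both readings every library of one group lay on one side, and the interaction of 1.22 normal scores did not pass (limma, adjusted p = 0.350).

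At the Tfrc promoter, EC-K4KO libraries lay above WT Cre libraries in young mice, by a mean of 9.43 percentile points, and below them in old mice (−3.78). The interaction was −0.40 normal scores and did not pass (limma, adjusted p = 0.696).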

How the results depend on the processing

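The count of regions that differed in strength between genotypes, 37 of 4872, went to 2 when ranked by fold enrichment, 3 with the strongest promoter peak per gene, 56 with percentile ranks, 18 with ranks within promoter and within distal regions (chosen after seeing the data), and 0 to 318 when 1 library was left out (214 and 318 without young WT Cre 1 or 2, 4 and 0 without old EC-K4KO 1 or 2, 0 without either old WT Cre library, 3 and 8 without young EC-K4KO 2 or 3). The age count of 1017 was 435 per gene and 269 to 1443 when 1 library was left out, at 269 to 507 without any 1 of the old libraries. The interaction count of 0 was 1 with ranks within class and 0 to 31 when 1 library was left out (24 and 31 without young WT Cre 1 or 2). Between old and young EC-K4KO, 999 became 1828 by fold enrichment, 302 per gene and 0 to 1474 when 1 library was left out (0 and 1 without old EC-K4KO 1 or 2, 508 without either old WT Cre library), and between genotypes in old mice the count stayed at 0. Width calls between genotypes (1506) were 13 with width ranks and 282 to 2621 when 1 library was left out, and between ages (3280) 352 and 1856 to 3752, in each case lowest without old EC-K4KO 1 and highest without young WT Cre 2. Genes that differed in number of peaks between genotypes (1024) were 31 at equal list length, 13 with promoter peaks alone and 0 to 1273 when 1 library was left out, and between ages (4063) 212, 277 and 0 to 4308. The counts of 0 there follow from the design, whose smallest p is 0.0556 without 1 young EC-K4KO library. For the other moves the cause was not tested.

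Signs changed as follows, at values that did not pass. For strength between ages, the Mfsd2a intron (−0.03) and the Insr intron at 63.9 kb (−0.22) changed sign by fold enrichment, the Lrp1 promoter with percentile ranks (−3.83 points) and the Cav2 promoter within class (0.02). Between genotypes the Lrp8 intron was 0.05 within class, and between old and young EC-K4KO the Insr intron at 63.9 kb was −0.02 by fold enrichment. With width ranks, the Insr intron at 63.9 kb was −0.22 between genotypes and −0.46 between ages, the Mfsd2a intron −0.10 and the Tfrc promoter −0.30. For peaks per gene between genotypes, Insr was −0.83 at equal list length, Tfrc 0.17 with a q-value limit and 0.25 with distal peaks alone, and Cav2 −0.58 with promoter peaks alone. Between ages, Cav2 was −0.25, Lrp1 −0.50 and Insr −0.17 at equal list length, and Tfrc −0.17, Cav2 −0.42 and Plvap −0.17 with promoter peaks alone. The promoter values of Cav2 and Tfrc turn on the class given to peaks at a region that all 9 libraries held.

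When 1 library was left out, strength differences between ages ranged from −0.18 to 0.16 at the Cav2 promoter, −0.28 to 0.07 at the Insr intron at 58.3 kb, −0.33 to 0.67 at the Lrp1 promoter and −0.08 to 0.34 at the Mfsd2a intron, and between genotypes from −0.15 to 0.14 at the Lrp8 intron and −0.01 to 0.11 at the Tfrc promoter. Peaks per gene ranged from −0.17 to 0.33 between ages for Lrp1, and between genotypes from −0.33 to 0.17 for Lrp1 and for Tfrc. Without old WT Cre 1, Insr had 3.08 more peaks in EC-K4KO (exact permutation p = 0.0333), and without old EC-K4KO 1 Tfrc had 1.83 more in old mice (exact permutation p = 0.0417).

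Replicate numbers are shared between groups. Libraries with the same number had deviations that correlated at −0.01 to 0.12 (mean 0.04) and others at −0.12 to 0.07 (mean −0.03). In a group of 2 libraries the deviations are mirror images, so that these ranges are not independent. They cannot decide whether the numbers pair the samples. Number 3 occurs in young EC-K4KO alone, so that a replicate block also sets that library aside. Its effects were those of the fits without young EC-K4KO 3, such as 0.50 at the Tfrc and −0.50 at the Cltc promoter between ages. The block is thus not a separate check from leaving out that library. With the replicate block, counts were 0 for strength between genotypes, 772 between ages, 518 between old and young EC-K4KO, 560 for width between genotypes and 3017 between ages. The age calls of the Tfrc promoter (limma, adjusted p = 0.0761) and the Cltc promoter (limma, adjusted p = 0.0712) were lost, as was that of the Insr intron at 54.2 kb between old and young EC-K4KO (limma, adjusted p = 0.0712). Of the width calls, the block ended those between genotypes of the Mfsd2a intron (limma, adjusted p = 0.0971) and the Insr intron at 63.9 kb (limma, adjusted p = 0.0786) and that between ages of the Mfsd2a intron (limma, adjusted p = 0.0501). It changed no other call of these genes in strength or width between genotypes or ages.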
